A study of Mus musculus with 4 samples.

Results

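The genes described here encode the machinery of cell division: 60 mouse genes of mitotic entry, the spindle checkpoint, the centromere and kinetochore, spindle motors, condensin and cytokinesis. They were taken by name, as the rows of the deposited table whose gene symbol was one of these 60. All 60 were found, with 88 transcripts, among 16709 gene symbols in the table. The RNA came from 3T3-L1 preadipocytes, a mouse fibroblast-like line that can turn into fat cells, grown in DMEM with serum. Cells of the first group received 25 µM Nutlin-3a for 24 h, and cells of the second received an equal amount of its solvent DMSO. Nutlin-3a blocks the binding of MDM2 to p53 and so spares p53 from degradation. Each group had 2 biological replicates, but the table gives 1 FPKM value per transcript and group (fragments counted on a transcript, divided by its length and by the number of fragments mapped). No value can be set against the spread between replicates, there is no replicate check and no p-value, and the depth of each library is unknown. Higher and lower therefore describe the authors' group values alone.

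A dividing cell passes into mitosis when CDK1, bound to its cyclins, is switched on by CDC25 phosphatases. Chromosomes are then compacted by condensin, and each centromere builds a kinetochore that holds spindle microtubules. Until every kinetochore is attached, the spindle checkpoint restrains the anaphase-promoting complex, the ubiquitin ligase that destroys cyclin B and securin. The chromosomal passenger complex corrects faulty attachments and later helps to place the furrow that parts the daughter cells. Many of these genes share a promoter build, with CCAAT boxes bound by NF-Y and a cell cycle homology region (CHR). Through the CHR, the DREAM complex represses them in resting cells, and B-MYB and FOXM1 act there in dividing cells. Active p53 is known to favour DREAM through p21, the product of Cdkn1a.

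That promoter build was visible in the reference sequence of the members, which is shown first because the rule that chose them did not use it. RefSeq promoter windows (GRCm38.p6, 250 bases before to 50 bases after the gene start) were matched by symbol for 51 of 60 members, in 57 windows. The letters searched, on both strands, were TTTGAA for the CHR, TTCGAA for a CHR variant, CCAAT, and TTCGCGC or TTGGCGC for E2F. TTTGAA stood in 39 of 57 member windows (68.4%) and in 5878 of 32851 windows of all genes (17.9%). Within 50 bases of the start, it stood in 59.6% of member windows and in 4.94% of all windows. CCAAT stood in 73.7% of member windows and 37.4% of all, and 2 or more CCAAT in 47.4% and 11.7%. TTTGAA together with CCAAT was found in 56.1% of member windows against 6.95% of all. The E2F letters were found in 17.5% against 3.89%, and TTCGAA in 8.77% against 1.56%. Matches of different motifs overlapped 4 times in the member windows. No window was matched for Tpx2, Kif20a, Spc24, Cdc25c, Smc4, Ccna2, Foxm1, Incenp and Aurkb. These matches describe letters and are not measured binding sites.

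The promoters below are those of members past a 2-fold difference between the groups for which a window was matched, with the B-type cyclin and CDK1 genes that lay within it for comparison. Each runs 5′ to 3′ from 150 bases before to 30 bases after the start. Capitals mark the searched letters on either strand (ATTGG is CCAAT read on the other strand).
Ccnb2: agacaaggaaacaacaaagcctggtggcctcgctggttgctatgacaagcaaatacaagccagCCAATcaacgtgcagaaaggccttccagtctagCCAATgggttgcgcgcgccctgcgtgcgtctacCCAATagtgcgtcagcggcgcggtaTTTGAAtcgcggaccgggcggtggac
Cdc25b: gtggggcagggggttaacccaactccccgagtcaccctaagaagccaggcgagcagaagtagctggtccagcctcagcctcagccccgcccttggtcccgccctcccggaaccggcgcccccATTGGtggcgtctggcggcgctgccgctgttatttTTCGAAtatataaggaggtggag
Racgap1: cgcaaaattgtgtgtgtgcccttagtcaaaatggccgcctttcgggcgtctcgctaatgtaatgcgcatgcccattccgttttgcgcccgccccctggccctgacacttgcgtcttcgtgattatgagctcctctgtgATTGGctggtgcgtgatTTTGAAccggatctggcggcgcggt
Cdk1: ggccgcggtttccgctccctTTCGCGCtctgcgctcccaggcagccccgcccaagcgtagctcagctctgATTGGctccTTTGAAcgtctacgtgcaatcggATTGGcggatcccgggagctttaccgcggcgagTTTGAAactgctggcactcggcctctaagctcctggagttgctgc
Ccnb1: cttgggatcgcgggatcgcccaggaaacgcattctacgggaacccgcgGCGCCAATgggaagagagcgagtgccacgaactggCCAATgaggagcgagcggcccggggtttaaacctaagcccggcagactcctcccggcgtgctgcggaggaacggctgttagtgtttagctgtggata
Spc25: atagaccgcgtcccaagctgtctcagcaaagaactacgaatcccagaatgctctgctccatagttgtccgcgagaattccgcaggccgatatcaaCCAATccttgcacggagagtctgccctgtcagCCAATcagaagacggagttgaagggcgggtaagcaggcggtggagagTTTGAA
Ckap2: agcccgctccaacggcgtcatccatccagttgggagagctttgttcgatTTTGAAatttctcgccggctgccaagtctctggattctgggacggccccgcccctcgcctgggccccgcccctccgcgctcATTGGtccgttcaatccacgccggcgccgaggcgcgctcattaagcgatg
The stretches lie at chr9:70421525-70421704, chr15:99651627-99651806, chr10:69352883-69353062, chr13:100786457-100786636, chr2:69206184-69206363 and chr8:22185790-22185969 on the minus strand, and at chr2:131186798-131186977 on the plus strand. With the start counted as base 1, TTTGAA began at base 5 in Ccnb2, base 6 in Racgap1 and base 25 in Spc25. The Ccnb2 window held another match at base -167, before the printed stretch. Cdk1 had TTTGAA at bases -71 and -15, and Ckap2 at base -101. Cdc25b held TTCGAA at base 8, and Ccnb1 had CCAAT at bases -99 and -67 without TTTGAA in its window. Forms of the CHR other than TTTGAA and TTCGAA were not searched, so Ccnb1 may still hold one. The first CCAAT of Ccnb1 overlaps an E2F match on the other strand. Both directions were present among the members with TTTGAA. Ccnb2 and Racgap1 were lower in Nutlin-3a, while Spc25 and Ckap2 were higher.

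Across the members, values were slightly lower in Nutlin-3a, and few genes passed 2-fold. Log2 ratios are Nutlin-3a over DMSO on the log2(FPKM + 1) scale, which understates the change of weakly expressed genes, whereas folds are plain ratios of FPKM. A gene was called at a 2-fold or larger difference on that log2 scale. All 60 members reached the minimum mean of 1 FPKM. Of these, 6 (10%) were at least 2-fold lower, beside 6.14% of the 10331 genes compared. Positions given for genes past the limit are the listed gene models in mm10. The lower genes were the cyclin genes Ccnb2 and Ccna2, the phosphatase gene Cdc25b, the transcription factor gene Foxm1, the kinetochore gene Spc24 and the cytokinesis gene Racgap1. Another 2 (3.33%) were at least 2-fold higher, Spc25 of the kinetochore and Ckap2 of the spindle, beside 6.62% of all genes compared. Centring both groups on the median ratio of all genes left 6 lower and 1 higher, beside 7.06% and 5.77% of all genes. Spc25 then lay inside the limit at 0.96. At a 1.5-fold limit, 14 members (23.3%) were lower beside 15.2% of all genes, and 3 (5%) were higher beside 17.8%. A log2 ratio below 0 was found in 36 members (60%) and in 45.2% of all genes. The median log2 ratio was -0.14 over the members, with quartiles of -0.55 and 0.16, and 0.07 over all genes, with quartiles of -0.33 and 0.44.

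**Figure D1:**
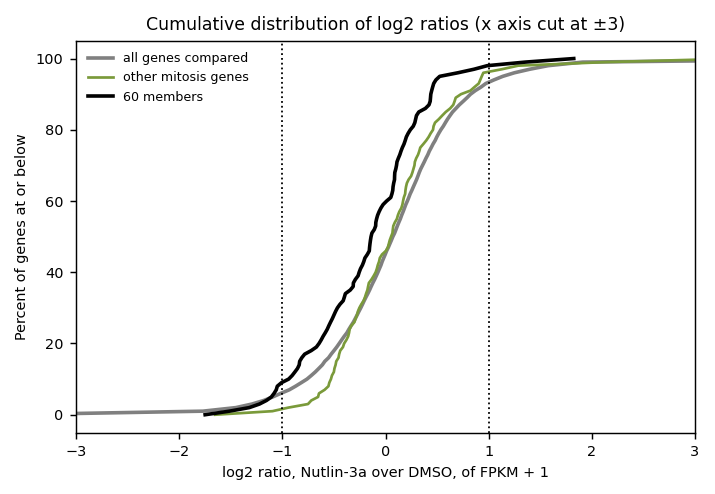
Cumulative percent of genes (y axis) at or below each log2 ratio of FPKM + 1, Nutlin-3a over DMSO (x axis), for the 60 members, the other mitosis genes and all 10331 genes compared. Dotted lines mark 2-fold; the curve of the members lies to the left of the curve of all genes at the median (-0.14 against 0.07) and at both quartiles.

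Levels differed far more between members than between groups. In DMSO the members ran from 1.73 FPKM for Kif20a to 228 FPKM for Birc5, with a median of 13.5 FPKM. In Nutlin-3a they ran from 1.82 FPKM for Cenpf to 222 FPKM for Pttg1, with a median of 9.51 FPKM. The medians of all genes compared were 8.76 and 9.14 FPKM. A total of 7 members exceeded 50 FPKM in both groups: Birc5, Pttg1, Ube2c, Cenpa, Cks2, Cdc20 and Bub3. Another 22 stayed under 10 FPKM in both. The summed level of the members was 1649 FPKM in DMSO and 1503 FPKM in Nutlin-3a, which was 0.168% and 0.155% of the whole table. In bulk RNA, fewer cells in mitosis and less RNA per mitotic cell cannot be told apart.

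**Figure D2:**
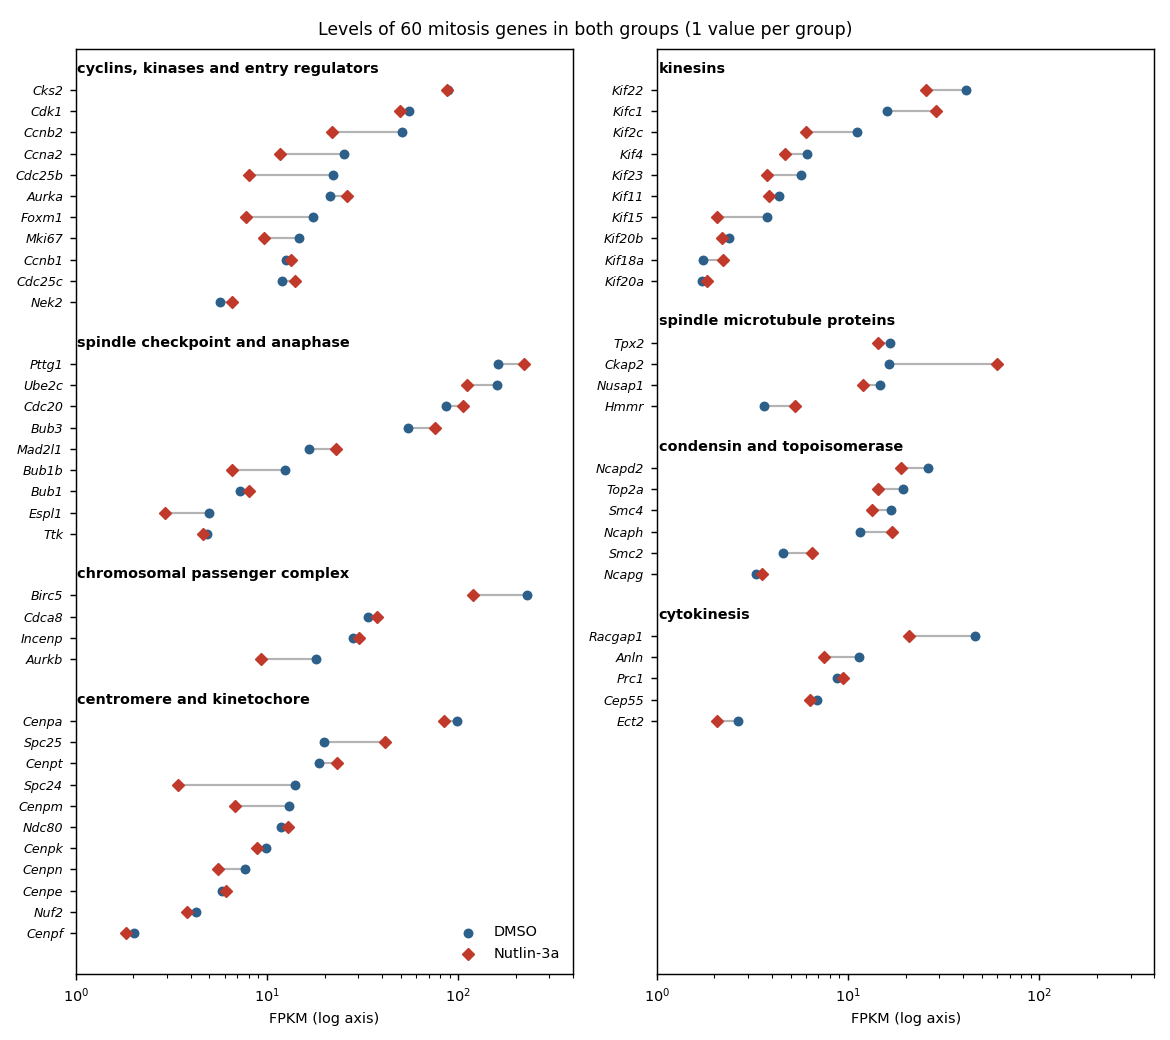
FPKM on a log axis (x) of each of the 60 members (y), grouped by role, with circles for DMSO and diamonds for Nutlin-3a, 1 value per group, joined by a line. Long lines mark Ckap2 to the right and Spc24, Cdc25b and Ccnb2 to the left, while pairs such as Cks2 and Ccnb1 nearly coincide.

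The 11 cyclins, kinases and entry regulators held 4 of the 6 lower members, beside 6.14% lower over all genes compared. Their median log2 ratio was -0.16. Cyclin B2 and cyclin B1 both activate CDK1, and their genes differed in ratio. Ccnb2 (chr9:70407689-70421554) had 21.7 FPKM after Nutlin-3a against 50.7 FPKM after DMSO and was 2.33-fold lower (log2 ratio -1.18). Ccnb1 was listed at 13.3 against 12.6 FPKM (log2 ratio 0.07). Ccnb2 thus stood 4.02-fold above Ccnb1 in DMSO and 1.63-fold above it in Nutlin-3a. Ccnb1 and Ccnb2 each have a pseudogene in the reference that could share reads, so both values are uncertain. Ccna2 (chr3:36552606-36571996), the cyclin A2 gene active from S phase into early mitosis, was 2.15-fold lower (11.7 against 25.3 FPKM, log2 ratio -1.05). Its only listed transcript carries the class code j, which marks a splice form that differs from the reference. Cdk1 itself, the kinase these cyclins drive, had 49.5 against 55.4 FPKM (log2 ratio -0.16), and its small partner Cks2 had 87.2 against 88.2 FPKM (log2 ratio -0.02).

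The CDC25 phosphatases, which remove inhibitory phosphates from CDK1, also went apart. Cdc25b (chr2:131127412-131604824), the member acting at the centrosome early in mitotic entry, was 2.74-fold lower (8.05 against 22.1 FPKM, log2 ratio -1.35). Cdc25c, which acts at mitotic onset, had 14.0 against 12.0 FPKM (log2 ratio 0.20). The ratio of Cdc25b to Cdc25c went from 1.84 in DMSO to 0.576 in Nutlin-3a. Foxm1 (chr6:128362994-128385144), which drives transcription of late cell cycle genes, was 2.23-fold lower (7.80 against 17.4 FPKM, log2 ratio -1.06). Mki67, which codes for the proliferation marker Ki-67, a coat protein of mitotic chromosomes, was lower within the limit (9.61 against 14.7 FPKM, log2 ratio -0.57). The centrosome kinase genes lay on the other side of 0. Aurka, needed for spindle poles, had 26.2 against 21.5 FPKM (log2 ratio 0.28, the highest of its role), and Nek2, which parts the centrosomes, had 6.54 against 5.64 FPKM (log2 ratio 0.18).

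The lower calls for Cdc25b, Ccna2 and Foxm1 come from gene models whose listed span reaches over neighbouring genes. That span is listed alike for every transcript of a model. The Cdc25b and Foxm1 transcripts carry the class code =, which marks a match to a reference transcript. The Cdc25b model spans 477413 bases and 12 other protein-coding genes, against 12076 bases in RefSeq. The Ccna2 model reaches over Exosc9 and the Foxm1 model over Tex52. Whether the counting used strand is not given in the sources used here, so reads of overlapping genes cannot be told apart. In all, 13 members had a protein-coding neighbour that overlaps the listed model, including some whose model is no longer than the RefSeq gene. Among the other 47, the lower members were 3 (Ccnb2, Racgap1 and Spc24) and the higher members 2 (Spc25 and Ckap2). Over all genes compared, 6.14% were lower and 6.62% higher, so the share of lower members was then close to that of all genes. The median of the cyclins, kinases and entry regulators without such models was 0.029.

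**Figure D3:**
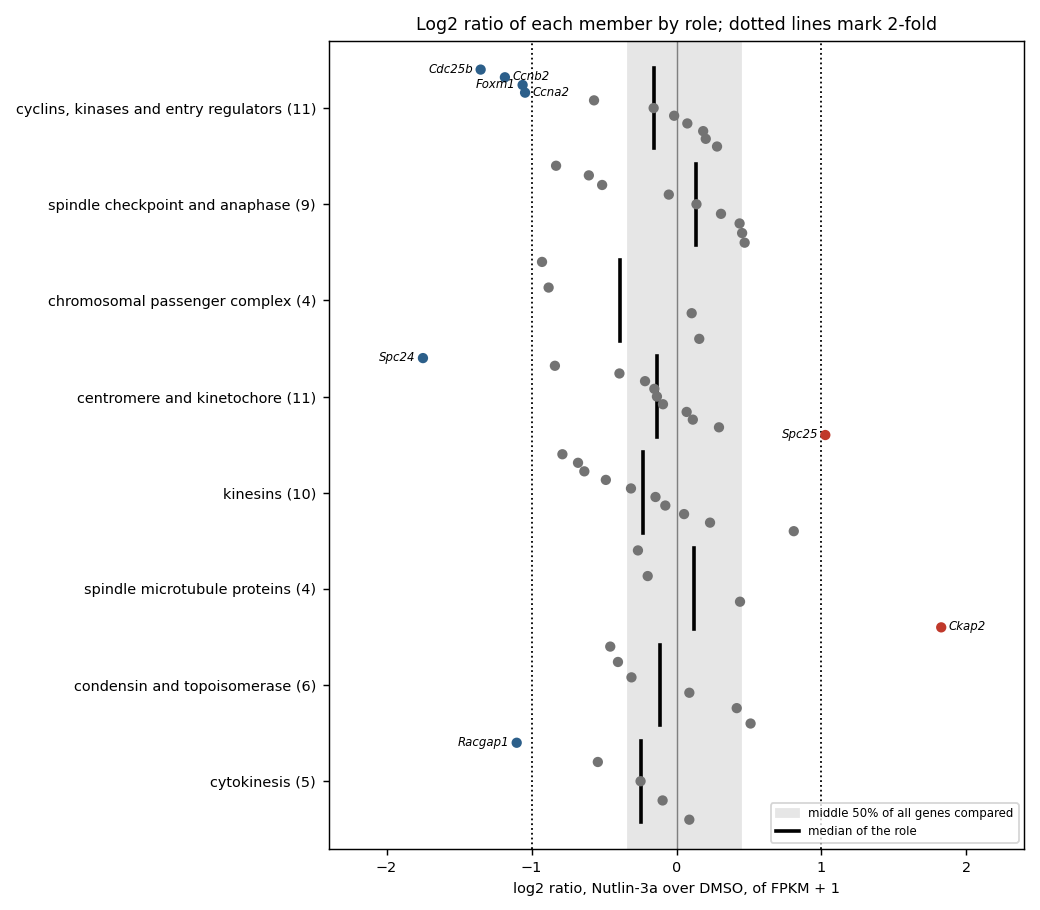
Log2 ratio of FPKM + 1, Nutlin-3a over DMSO (x axis), of each member by role (y axis, number of members in brackets). Black bars are role medians, the grey band is the middle 50% of all genes compared, dotted lines mark 2-fold, and the 8 coloured and named points lie past it.

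None of the 9 spindle checkpoint and anaphase genes passed 2-fold, beside 6.14% lower and 6.62% higher over all genes compared. So few genes could all lie within the limit at those shares. Their median log2 ratio was 0.14. The mitotic checkpoint complex joins BUBR1, BUB3, MAD2 and CDC20, and its genes lay on both sides of 0. Bub1b, the BUBR1 gene, had 6.54 against 12.4 FPKM (1.90-fold lower, log2 ratio -0.83). The 3 others were higher in Nutlin-3a: Bub3 with 75.5 against 54.3 FPKM (log2 ratio 0.47), Mad2l1 with 22.8 against 16.6 FPKM (0.43) and Cdc20 with 106 against 85.9 FPKM (0.31). Kinases that start checkpoint signalling stayed near 0. Bub1 had 8.07 against 7.25 FPKM (log2 ratio 0.14), and Ttk, the MPS1 kinase gene, had 4.64 against 4.86 FPKM (log2 ratio -0.05). The Cdc20 model reaches over Elovl1.

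At anaphase, separase cuts cohesin once its inhibitor securin is destroyed. Pttg1, the securin gene, had 222 against 162 FPKM (log2 ratio 0.45). A Pttg1 transcript with the class code j held 98.4% of its level in Nutlin-3a and 97.8% in DMSO. Espl1, the separase gene, had 2.93 against 4.98 FPKM (1.70-fold lower, log2 ratio -0.61). The level of Pttg1 was 32.5-fold that of Espl1 in DMSO and 75.6-fold in Nutlin-3a. Ube2c, the ubiquitin-conjugating enzyme gene of the anaphase-promoting complex, had 111 against 159 FPKM (log2 ratio -0.51).

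Within the chromosomal passenger complex, the kinase and survivin genes were lower just inside the limit, and the other subunits were not. Aurkb, the kinase that loosens wrong attachments, had 9.26 against 17.9 FPKM (1.93-fold lower, log2 ratio -0.88). Birc5, which encodes survivin, the subunit that docks on centromeric histones, had 119.6 against 228 FPKM (1.91-fold lower, log2 ratio -0.93). Incenp, the scaffold, had 30.2 against 28.0 FPKM (log2 ratio 0.10), and Cdca8, the borealin gene, had 37.5 against 33.6 FPKM (0.16). Birc5 stood 12.7-fold above Aurkb in DMSO and 12.9-fold above it in Nutlin-3a, so these genes kept their proportion. The role median was -0.39 over 4 genes.

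The NDC80 complex, the rod that grips microtubules at the kinetochore, held the lowest and the second highest ratio of all members. Spc24 (chr9:21755442-21760286) had 3.44 FPKM after Nutlin-3a against 13.9 FPKM after DMSO and was 4.05-fold lower (log2 ratio -1.75). Spc25 (chr2:69193895-69206213) had 41.5 against 19.9 FPKM and was 2.09-fold higher (log2 ratio 1.03). The proteins of Spc24 and Spc25 form the inner end of the rod as a pair, yet the level of Spc25 was 1.43-fold that of Spc24 in DMSO and 12.1-fold in Nutlin-3a. The outer pair stayed close to its DMSO level: Ndc80 had 12.9 against 11.9 FPKM (log2 ratio 0.11) and Nuf2 had 3.79 against 4.26 FPKM (-0.14). The highest subunit exceeded the lowest 4.66-fold in DMSO and 12.1-fold in Nutlin-3a. The ratio of Spc25 depended on how its transcripts were joined, as given below.

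**Figure D4:**
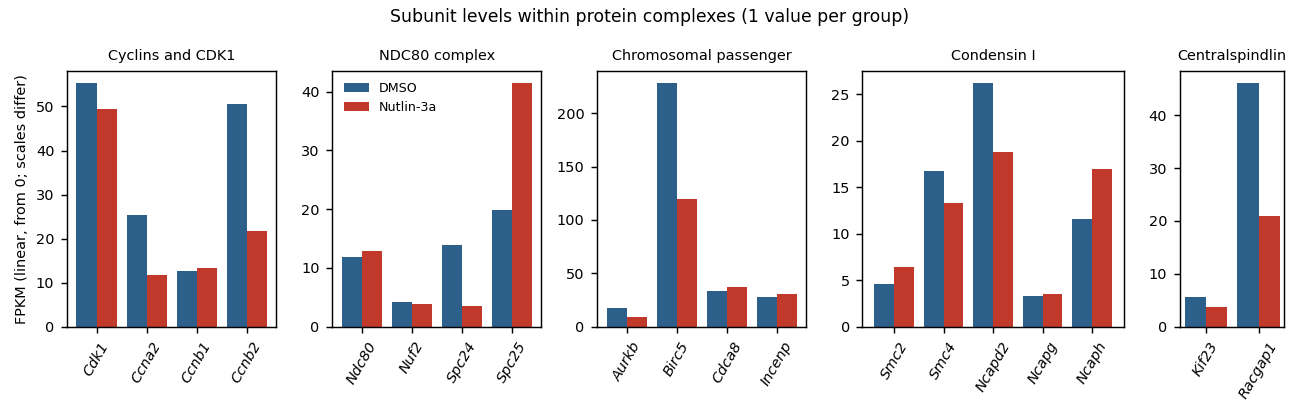
FPKM (y axis, linear from 0, with a separate scale per panel) of the subunits of 5 assemblies (x axis), blue bars for DMSO and red bars for Nutlin-3a, 1 value per group and no error bars. Spc24 and Spc25 go opposite ways, and Ccnb2, Ccna2, Aurkb, Birc5 and Racgap1 are lower beside partners that differ less.

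The other 7 centromere and kinetochore genes lay within 2-fold, as did most of all genes compared. Cenpa, the histone variant that marks centromeres, had 84.6 against 98.5 FPKM (log2 ratio -0.22). Among genes of the constitutive centromere network that sits on it, Cenpm had 6.83 against 13.0 FPKM (1.90-fold lower, log2 ratio -0.84) and Cenpn had 5.56 against 7.62 FPKM (-0.39). Cenpk had 8.81 against 9.91 FPKM (log2 ratio -0.15), and Cenpt, which links centromeric DNA to NDC80, had 23.2 against 18.8 FPKM (0.29). Subunits of this network therefore lay on both sides of 0. Genes of large corona proteins stayed near 0: Cenpe, a kinesin that carries chromosomes to the spindle equator, had 6.11 against 5.78 FPKM (log2 ratio 0.07), and Cenpf had 1.82 against 2.01 FPKM (-0.09). The models of Cenpk, Cenpn and Cenpt each overlap 1 neighbouring gene. Only the Cenpk model is longer than its RefSeq gene (44501 against 21012 bases).

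None of the 10 kinesins passed 2-fold, 7 had a ratio below 0, and their median was -0.23. Of all genes compared, 6.14% were lower and 6.62% higher past 2-fold, and 45.2% lay below 0. At those shares, so few genes could all lie within the limit. The member farthest above 0 was Kifc1, a minus-end motor that focuses spindle poles, with 28.7 against 16.0 FPKM (1.80-fold higher, log2 ratio 0.81). The farthest below was Kif2c, a depolymerase of kinetochore microtubules, with 6.03 against 11.1 FPKM (1.85-fold lower, log2 ratio -0.79). Chromokinesins, which ride on chromosome arms, were also lower: Kif22 had 25.5 against 41.5 FPKM (log2 ratio -0.68) and Kif4 had 4.69 against 6.07 FPKM (-0.31). Kif11, the motor that pushes spindle poles apart, had 3.86 against 4.37 FPKM (log2 ratio -0.15). Kif15, which can stand in for it, had 2.06 against 3.76 FPKM (1.82-fold lower, log2 ratio -0.64). Kif18a, which dampens chromosome movements, had 2.23 against 1.75 FPKM (0.23). Kif20a (1.83 against 1.73 FPKM) and Kif20b (2.19 against 2.37 FPKM), motors of late mitosis, had log2 ratios of 0.05 and -0.08. The models of Kif18a and Kif20a overlap neighbours, and only that of Kif20a is longer than its RefSeq gene (53122 against 8654 bases). The only Kif4 transcript listed has the class code j. A pseudogene of Kif22 and one of Kif4 in the reference make those values uncertain.

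Of 4 other spindle microtubule proteins, Ckap2 had the highest ratio of all members. Ckap2 (chr8:22168152-22185819), which promotes microtubule growth, had 60.4 FPKM after Nutlin-3a against 16.3 FPKM after DMSO and was 3.70-fold higher (log2 ratio 1.83). It has 1 listed transcript, and its model of 17668 bases matches the 17671 bases of RefSeq. Tpx2, which activates Aurora A on the spindle, had 14.3 against 16.6 FPKM (log2 ratio -0.20). Nusap1, which bundles spindle fibres, had 12.0 against 14.6 FPKM (-0.27), from a model that reaches over Oip5. Hmmr, a spindle pole protein gene, had 5.28 against 3.63 FPKM (log2 ratio 0.44). With only 4 genes the role median of 0.12 changed sign with the minimum mean: at 5 FPKM, which drops Hmmr, it was -0.20.

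Condensin I is a ring of SMC2 and SMC4 closed by the subunits NCAPD2, NCAPG and NCAPH, and none of its genes passed 2-fold. So few genes could all lie within it at the shares of all genes compared (6.14% lower and 6.62% higher). Ncaph, the part that bridges the ring, had 16.9 against 11.6 FPKM (log2 ratio 0.51), and Smc2 had 6.44 against 4.58 FPKM (0.42). Smc4, the partner of Smc2, had 13.3 against 16.7 FPKM (log2 ratio -0.31), and Ncapd2 had 18.8 against 26.2 FPKM (-0.46). Ncapg had 3.55 against 3.28 FPKM (log2 ratio 0.09), from a model that reaches over Lcorl. The level of Smc4 was 3.65-fold that of Smc2 in DMSO and 2.06-fold in Nutlin-3a, and the spread from the lowest to the highest subunit was 7.99-fold and 5.30-fold. Top2a, the topoisomerase that untangles sister DNA, had 14.4 against 19.3 FPKM (log2 ratio -0.40). The role median was -0.11.

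Cytokinesis genes had a role median of -0.25, and Racgap1 passed the limit. RACGAP1 and the motor KIF23 form centralspindlin, which gathers at the spindle midzone and recruits ECT2 to switch on RhoA. Racgap1 (chr15:99620496-99651656) had 20.9 against 46.1 FPKM and was 2.20-fold lower (log2 ratio -1.10). Its partner Kif23 had 3.77 against 5.69 FPKM (1.51-fold lower, log2 ratio -0.49). Ect2 had 2.07 against 2.64 FPKM (log2 ratio -0.25), and Anln, an actin-binding scaffold of the furrow, had 7.50 against 11.4 FPKM (-0.54). The Anln model spans 333747 bases and 11 other protein-coding genes, which makes its value uncertain. Prc1, which bundles midzone microtubules, had 9.41 against 8.80 FPKM (log2 ratio 0.09), and Cep55, which acts in the final cut, had 6.35 against 6.86 FPKM (-0.10). The Prc1 model overlaps Rccd1 without being longer than its RefSeq gene, and 1 of its 3 transcripts has the class code j.

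Transcripts of the same gene did not always go the same way. A single transcript was listed for 42 members and several for 18. In 2 of these 18 genes, transcripts lay past 2-fold in both directions. The share of such genes over the whole series was not counted, so this may be common. One Racgap1 transcript had 13.8 against 46.0 FPKM (log2 ratio -1.66), and the other had 7.13 against 0.161 FPKM (2.81). The second made up 34.0% of Racgap1 in Nutlin-3a and 0.349% in DMSO. Cenpa had a transcript at 14.4 against 37.1 FPKM (log2 ratio -1.30), a small one at 2.34 against 0.287 FPKM (1.37) and a main one at 67.4 against 59.4 FPKM (0.18). The Spc25 sum joined a transcript at 16.6 against 13.9 FPKM (log2 ratio 0.24) with one at 21.0 against 5.42 FPKM (1.77) and one at 3.69 against 0.545 FPKM (1.60). With the transcript of highest mean in place of the sum, Spc25 lay inside the limit at 0.24. On the same basis Cenpm lay past it at -1.61, from 2.80 against 10.6 FPKM. How fragments were split between such transcripts is an estimate of the authors' software, and its error is not given.

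**Figure D5:**
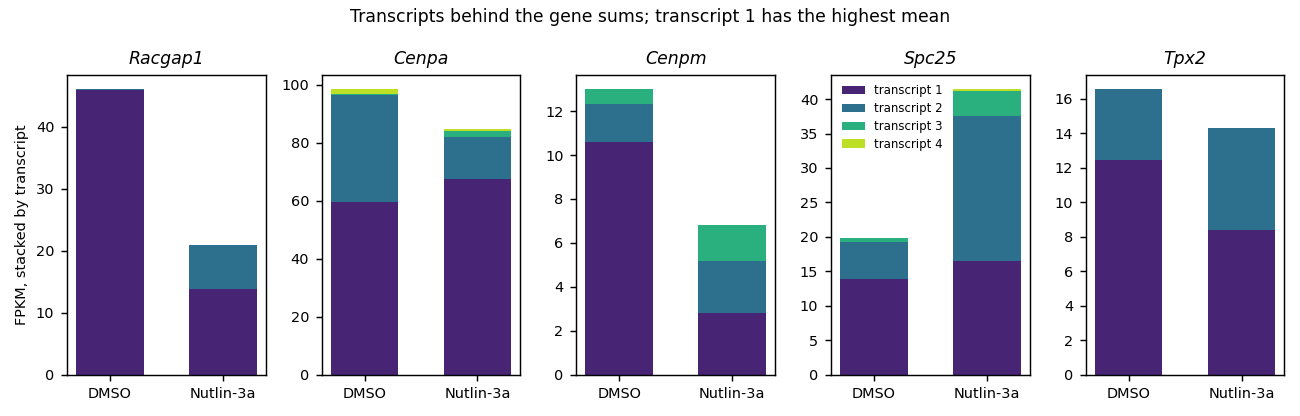
FPKM stacked by listed transcript (y axis, linear from 0, separate scales) for Racgap1, Cenpa, Cenpm, Spc25 and Tpx2 in DMSO and Nutlin-3a (x axis), numbered from the highest mean. The second Racgap1 transcript appears in Nutlin-3a (7.13 FPKM) and is nearly absent in DMSO (0.161 FPKM), and transcript 2 of Spc25 carries most of its difference.

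The ratio of a member went with its base composition. Across the 60 members, log2 ratio and transcript GC content had a Spearman rho of -0.32. Over the 9935 genes compared that have a GC content, rho was -0.22. Both are given as descriptions, since all points come from the same pair of columns. The median GC content was 46.3% over the members, 51.1% over the 6 lower ones and 42.6% over the 2 higher ones. After a correction for GC content over all genes, 5 members were lower and 2 higher, beside 4.93% and 7.24% of all genes. Foxm1 then lay inside the limit at -0.90 and Spc25 at 0.89, and Kifc1 passed it at 1.01. The median of the members was then -0.24. What part GC content plays in the single ratios was not tested.

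Ratios were also set beside the promoter letters. The lower members Spc24, Ccna2 and Foxm1 have no window and are left out here. Of 35 members with TTTGAA in a promoter window, 2 were lower and 2 higher past 2-fold. Over all genes compared, 6.14% were lower and 6.62% higher. The median log2 ratio of these 35 members was -0.16. Of 16 members with a window but without TTTGAA, 1 (Cdc25b) was lower and none higher, with a median of 0.07. Cdc25b, Bub1 and Cenpm, which are among these 16, hold the CHR variant TTCGAA. Over the 37 members with CCAAT the median was -0.15, and over the 14 without it -0.09. The 9 members with the E2F letters had a median of -0.16. Differences between these medians were not tested.

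Other genes of mitosis, listed from general knowledge of the pathway, are given beside the members. Of 109 such genes, 100 were compared and 46 of these had a log2 ratio below 0, with a median of 0.05. Over all genes compared, 45.2% lay below 0 and the median was 0.07. At 2-fold, 2 of the 100 were lower and 4 higher, beside 6.14% and 6.62% of all genes. The shift of the members was therefore not seen in this list as a whole. The list was not matched to the members in role or level, and its groups differed. Lower were Pmf1, a MIS12 complex gene that anchors NDC80 (30.4 against 97.6 FPKM, 3.21-fold), and Cenpx, listed under its older symbol Stra13 (36.3 against 78.6 FPKM, 2.16-fold). Higher were Gtse1, a microtubule protein gene that also restrains p53 (94.2 against 7.78 FPKM), and Psrc1, a spindle protein gene (122 against 27.3 FPKM, 4.47-fold). Kif18b, a depolymerising kinesin gene (13.3 against 4.92 FPKM, 2.70-fold), and Cenpw, a centromere gene (17.6 against 7.55 FPKM, 2.34-fold), were higher as well. Kinetochore genes of this list had a median of 0.23 over 28 compared, with 9 below 0. Those of the anaphase-promoting complex and cohesin had -0.14 over 22, with 13 below 0. The 17 entry regulators had -0.06, with 9 below 0.

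As a check of the treatment, Cdkn1a, the p21 gene, had 386 FPKM after Nutlin-3a against 35.2 FPKM after DMSO. Trp53 had 63.1 against 54.5 FPKM. Mdm2 was listed at 0 after Nutlin-3a and at 773 FPKM after DMSO, the opposite direction to Cdkn1a. An exact 0 can be a failed estimate, which was not tested, so the check rests on Cdkn1a alone. All 8 preadipocyte markers were listed at 9.14 FPKM or more in both groups, and 7 of them, such as Col1a1 and Pdgfra, were lower in Nutlin-3a. Of 23 markers of adipocytes, macrophages, endothelium, epithelium and muscle, 19 had a row, and they summed to 16.6 FPKM after Nutlin-3a and 7.86 FPKM after DMSO. The highest of them were Cd68 in Nutlin-3a (6.52 against 2.91 FPKM in DMSO) and Tnnt3 in DMSO (3.43 against 1.76 FPKM in Nutlin-3a). Plin1, Lep, Ptprc, Kdr, Epcam and Ckm were listed at 0 in DMSO, and Car3 at 0 in Nutlin-3a. What part these shifts play in the mitotic genes was not tested.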

How the data were processed

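RNA of 4 libraries, 2 per group, was sequenced. Per the submitters' processing notes, reads were handled with TopHat2 2.0.11 and mm10. Which quantifier, annotation and strand setting were used, and how replicates were joined, is not given in the sources used here. FPKM stands once per transcript and group in the authors' deposited table, with columns marked NUT read as Nutlin-3a and the others as DMSO. Its deposited log2 columns equal log2 of FPKM to within 0.00714 and were not used. Another 4294 lines held only tabs. FPKM was summed per symbol, and log2(FPKM + 1) ratios were taken for 10331 genes with a mean of at least 1 FPKM and a value above 0 in both groups (Python 3.11.15, pandas 2.3.3, statsmodels 0.14.6 for GC curves). Code was tested on simulated data. With 1 value per group, the planned limma fit was not run and no p-value exists. GC content is that of the longest GENCODE M21 transcript. Listed starts were counted from 0. Members, lists and tests were chosen with earlier results of these data known. The rule for named genes took members past 2-fold or with opposed transcripts, subunits of 4 complexes, the extremes of each role, other mitosis genes past 2-fold, Cdkn1a, Mdm2 and Trp53. The remaining members, some cell type markers and genes under a member's model are named outside that rule, after their values were seen. The settings varied were the pseudocount, the filter, the scaling, the fold limit, the transcript taken and a GC correction.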

Additional observations from a re-analysis of the deposited data

How the results depend on the processing

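No paired analysis was possible because the table holds 1 value per group, and leaving out a replicate was not possible for the same reason. The members' median stayed below 0 and below that of all genes in every setting run. With a pseudocount of 5, 3 members were lower and 1 higher, beside 2.82% and 2.41% of all genes. Racgap1 (-0.98), Ccna2 (-0.86) and Foxm1 (-0.81) then lay inside the limit, 2 other mitosis genes were higher and the cytokinesis median was -0.11. With a pseudocount of 0.1, 8 other mitosis genes were higher, beside 9.66% of all genes. With a mean of at least 5 FPKM, medians were 0.31 for checkpoint and anaphase, -0.50 for kinesins, -0.20 for spindle microtubule proteins and -0.31 for condensin. Centring and the transcript of highest mean each left 1 member higher, beside 5.77% and 7.08% of all genes. The cytokinesis median was -0.36 after quantile normalization and -0.41 after GC correction, which gave -0.020 for checkpoint and anaphase and -0.24 for the kinetochore. At 1.5-fold, 14 members and 8 other genes were lower and 15 other genes higher, beside 15.2% lower and 17.8% higher over all genes. At 3-fold, 1 member (Spc24) and 1 other gene were lower, and 1 member (Ckap2) and 2 other genes higher. Over all genes, 1.49% were lower and 1.95% higher at that limit. Without members over neighbouring genes, chosen after seeing the data, 3 of 47 were lower, beside 6.14% of all genes. Medians were then 0.029 for cyclins and kinases, -0.40 for kinesins, 0.44 for spindle proteins and -0.31 for condensin. Apart from counts that shift with the limit by construction, the cause of these shifts was not tested.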
